A study of Mus musculus with 6 samples.

Results

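The nuclear genes of respiratory complex I carry symbols that start with Nduf, and 49 protein-coding genes with such a symbol were counted among the 27179 gene identifiers of the series. They were chosen by symbol alone, with 3 pseudogene entries (Ndufs5-ps, Ndufa11b and Ndufs6b) left out. Of the 49, 37 are structural subunits, 8 are assembly factors named Ndufaf, and 4 bear the name without being taken as subunits or assembly factors here (Ndufa4, Ndufa4l2, Ndufb4b and Ndufb4c). All 49 passed the filter on low counts, as did 14957 genes in all.

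RNA was sequenced from germinal vesicle oocytes, the fully grown mouse oocytes that still hold an intact nucleus, in 3 pools with a maternal knockout of Prdm10 and 3 wildtype pools of about 10 oocytes each. The product of Prdm10 is a PRDM-family protein with zinc fingers. In the knockout, a Cre recombinase driven by the Zp3 promoter removed the loxP-flanked exon 5 in growing oocytes, and that promoter is not known to act in the follicle cells around them. The age and strain of the mice, and whether the wildtype mice carried the floxed allele or Cre, are not given in the labels; the pools are called biological replicates there, without saying whether they came from separate mice, so p-values describe no more than the spread over pools.

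Complex I is the entry point of NADH electrons into the mitochondrial respiratory chain. It is built from core subunits that carry the catalytic centres and from supernumerary subunits that surround them. Part of the core is encoded by mitochondrial DNA and made in the organelle, while the Nduf genes are transcribed in the nucleus. Assembly factors help modules come together and are absent from the finished enzyme. Oocytes rely on mitochondrial respiration for ATP.

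Total counts lay between 22492228 and 38831227 per library. Prdm10 was lower in every knockout library, with 2.8, 3.82 and 3.05 CPM (counts scaled to a common library size with TMM factors) in knockout oocytes, against 10.4, 23.1 and 23 CPM in wildtype oocytes (log2 fold change -2.54, SE 0.325, edgeR quasi-likelihood adjusted p = 0.00436). Wildtype replicate 1 stood apart from the other wildtype libraries, with a Spearman correlation of 0.976 and 0.975 to them, whereas wildtype replicates 2 and 3 reached 0.996 and the knockout pairs at least 0.995. Oocyte markers summed to 32848, 31951 and 31328 CPM in knockout libraries, against 30004, 33679 and 33187 CPM in wildtype libraries. Granulosa and cumulus markers, of which 15 of 18 were tested and Ptx3 was at 0 in every library, summed to 466, 485 and 503 CPM in knockout libraries, against 272, 422 and 420 CPM in wildtype libraries. Most of that sum was Serpine2, and the rest came to 86.7, 81.7 and 95.7 CPM in knockout libraries, against 94.2, 88.2 and 97.2 CPM in wildtype libraries. Theca and stroma markers (4 of 13 tested) summed to 7.01, 7.35 and 19.5 CPM in knockout libraries, against 22.7, 6.12 and 5.17 CPM in wildtype libraries. Wildtype replicate 1 and knockout replicate 3 were the highest, with Cyp11a1 at 11.4 and 11 CPM in them. Blood, immune and endothelial markers (4 of 14 tested, Cdh5 and Hba-a1 at 0) summed to between 133 and 134 CPM in knockout libraries, against 47.1 to 99.4 CPM in wildtype libraries. Most of it was Pecam1, and the rest came to between 27.1 and 29.5 CPM in knockout libraries, against 16.7 to 23.7 CPM in wildtype libraries. Their part in the results below was not tested.

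Promoters are shown for a pair of genes, 1 higher and 1 lower in knockout oocytes once wildtype replicate 1 was left out, because both hold the same match to the palindromic motif of NRF1, a transcription factor known for binding promoters of respiratory chain genes. The stretches run from 250 bases before to 50 bases after the start of the gene on the plus strand of GRCm38.p6, from RefSeq, with the match in capitals. Ndufa11 lies on chromosome 17 (chr17:56717512-56717811, match at bases 191 to 200) and Ndufaf4 on chromosome 4 (chr4:24897833-24898132, match at bases 138 to 147).
Ndufa11: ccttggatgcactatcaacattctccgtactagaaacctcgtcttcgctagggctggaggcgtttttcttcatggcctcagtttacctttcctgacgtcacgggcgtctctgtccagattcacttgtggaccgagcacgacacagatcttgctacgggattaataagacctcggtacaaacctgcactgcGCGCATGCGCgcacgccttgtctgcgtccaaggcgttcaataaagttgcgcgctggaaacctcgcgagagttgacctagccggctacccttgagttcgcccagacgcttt
Ndufaf4: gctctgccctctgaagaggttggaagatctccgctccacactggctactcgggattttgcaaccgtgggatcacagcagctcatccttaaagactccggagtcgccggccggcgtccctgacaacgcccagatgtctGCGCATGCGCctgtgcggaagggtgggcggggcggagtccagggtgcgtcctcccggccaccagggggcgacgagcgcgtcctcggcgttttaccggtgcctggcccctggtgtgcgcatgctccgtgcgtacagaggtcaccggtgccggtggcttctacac

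A promoter was in the RefSeq table for 42 of the 49 genes. The NRF1 pattern, searched on both strands as the 10 capital letters above with the fifth left free, was in 9 of the 42 (21.4%), among them Ndufa5, Ndufs5 and Ndufs6, against 10.6% of the 11549 tested genes with a promoter of the same length. AANATGGCG, a YY1 pattern, was in 8 of the 42 (19.0%), among them Ndufs7, Ndufa9 and Ndufb11, against 5.35% of the tested genes. CCGGAAG, an ETS pattern, was in 6 (14.3%) against 18.3% of the tested genes, and CCAAT was in 14 (33.3%) against 42.9%. These patterns were kept from a larger number after their counts had been seen, and a match is only a run of letters.

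Nduf mRNAs were abundant in the oocyte. Per kilobase of the longest annotated transcript, which allows levels to be compared between genes, structural subunits had a median of 54.2 CPM per kb over the 6 libraries and Ndufaf assembly factors 25.9 CPM per kb, against 5.05 CPM per kb over all tested genes. Among the structural subunits the core median was 70.9, the supernumerary matrix arm median 54.1 and the supernumerary membrane arm median 51.8 CPM per kb. A length was known for 46 of the 49, and with the longest protein-coding transcript instead, the structural and Ndufaf medians were 63.2 and 29.1 CPM per kb. The gap was smaller in plain CPM, with medians of 64.7 for structural subunits and 40.5 for Ndufaf factors, against 14.7 over all tested genes. In plain CPM, 43 of the 49 had at least 10 CPM in every library.

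**Figure D1:**
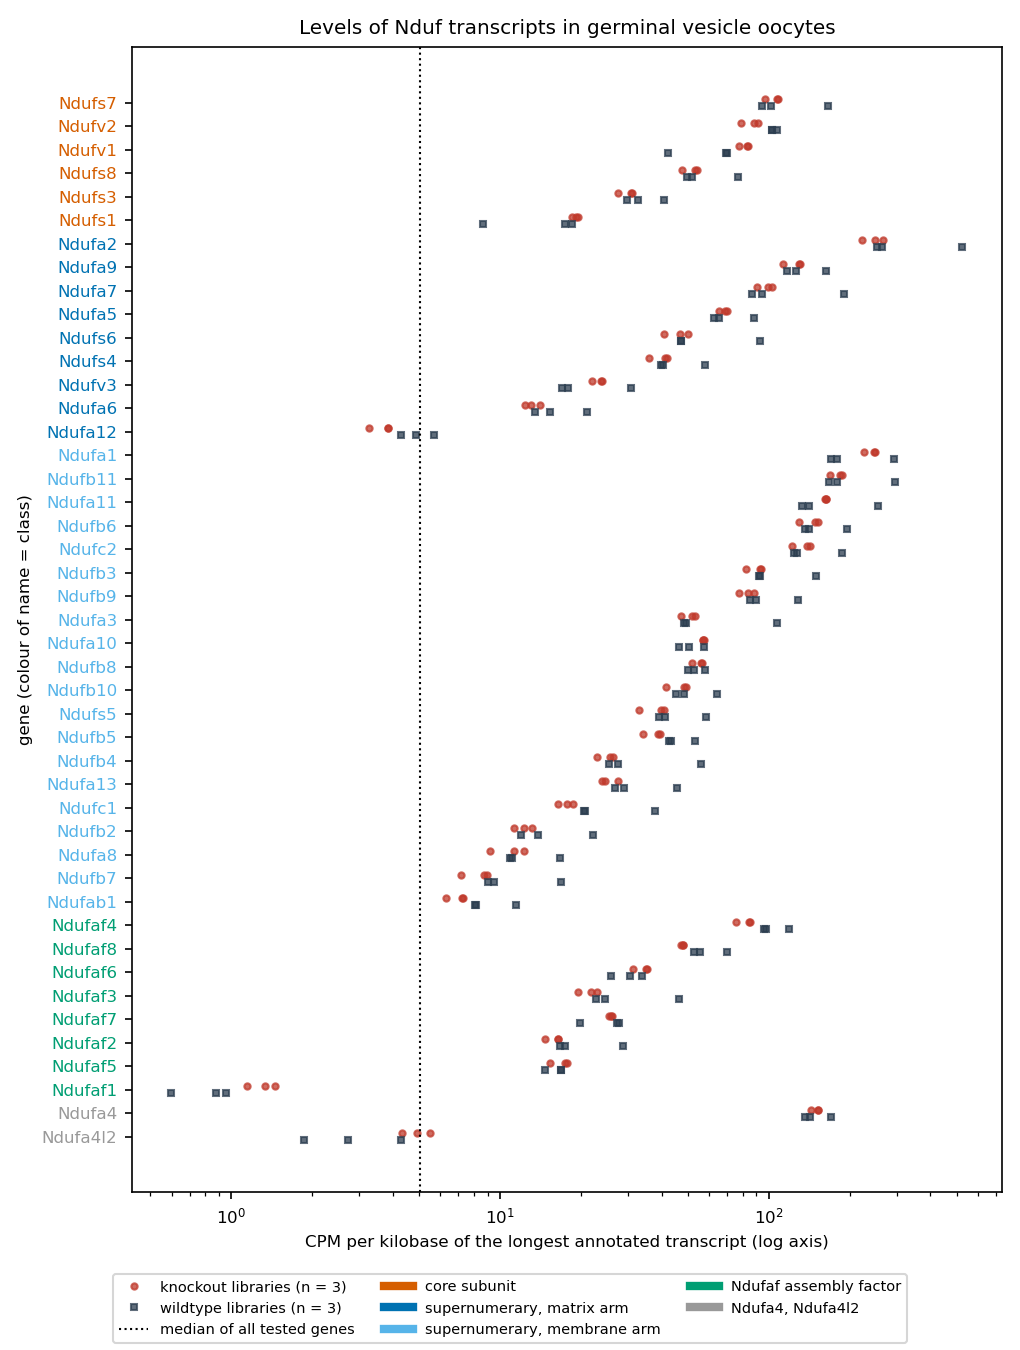
Level of the Nduf genes with a known transcript length, 1 not shown, in every library, in CPM per kilobase of the longest annotated transcript on a log axis, grouped by role; red circles are the 3 knockout libraries, dark squares the 3 wildtype libraries, and the dotted line the median of all tested genes (5.05). Ndufa2 lies farthest right, while Ndufaf1, Ndufa4l2 and Ndufa12 lie left of or around the dotted line.

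Members differed widely in level, with means over the 6 libraries between 1.06 and 297 CPM per kb. On this length, and among the 46 with a length, Ndufa2, a thioredoxin-fold subunit of the NADH module, was highest with 246 ± 21.7 CPM per kb in knockout oocytes and 347 ± 155 CPM per kb in wildtype oocytes (SD, n = 3 each). Ndufa1, an X-linked single-pass membrane subunit, followed with 240 ± 12.3 CPM per kb in knockout oocytes and 214 ± 68.4 CPM per kb in wildtype oocytes (SD, n = 3 each), within the spread of Ndufa2. Ndufaf1, a member of the MCIA complex that builds the ND2 module, was lowest of the 46 with 1.31 ± 0.161 CPM per kb in knockout oocytes and 0.812 ± 0.189 CPM per kb in wildtype oocytes (SD, n = 3 each). Ndufb4b and Ndufb4c, which have no length here, were lower still in plain CPM. The mean level of Ndufaf1 over the 6 libraries stood at the 26.3 percentile of all tested genes. The Ndufaf factors themselves ran from there to Ndufaf4, with a mean of 93.1 CPM per kb. The choice of transcript moved some members. On the longest protein-coding transcript Ndufa4 came first, with 303 CPM per kb against 150 on its longest transcript, and Ndufa2 second with 297. Ndufb7 had 10.0 CPM per kb on its longest transcript and 71.5 on its longest protein-coding one, and Ndufaf2 had 18.4 and 65.3.

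With all 6 libraries no Nduf gene passed the threshold in edgeR's quasi-likelihood test at an adjusted p under 0.05, whereas 1676 of the 14957 tested genes did (11.2%, with 5.87% higher and 5.34% lower). The smallest adjusted p among the members was 0.119. At an unadjusted p under 0.05 there were 10 members, and DESeq2 and limma-voom also called none. The fitted log2 fold changes leaned low, with a median of -0.25 over structural subunits (30 of 37 negative) and -0.14 over Ndufaf factors (4 of 8 negative), beside 0.00 over all tested genes. A difference between structural subunits and assembly factors was not tested. Fewer oocytes and less RNA per oocyte cannot be told apart in such pools, and CPM are relative to the rest of the library. The knockout and wildtype libraries did not overlap for 13 of the 49, 3 higher and 10 lower, against 40.2% of all tested genes (21% higher and 19.2% lower).

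Wildtype replicate 1 carried most structural subunits at a higher level than the other libraries. Its structural subunits stood a median of 0.55 above the mean of wildtype replicates 2 and 3 on the log2 scale, with 34 of 37 above; Ndufs1 (-1.06) and Ndufv1 (-0.72) were among those below. In the same library Ndufaf factors stood 0.24 above and all tested genes 0.01 above. It was the highest of the 6 libraries for 41 of the 49 members, where it was highest for 32.5% of all tested genes. Wildtype replicates 2 and 3 lay within 1.2-fold of each other for all 37 structural subunits. Knockout replicate 1 lay below the mean of the other knockout libraries for 35 of the 37, with a median deviation of -0.17.

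Summed over the 37 structural subunits, the level was 2660, 2943 and 2951 CPM in knockout libraries, against 3998, 2857 and 2758 CPM in wildtype libraries. The single high library is wildtype replicate 1, and the knockout libraries otherwise straddle wildtype replicates 2 and 3. The 7 core subunits alone summed to 664.2 ± 27.7 CPM in knockout and 667.9 ± 11.6 CPM in wildtype (SD, n = 3 each). The Ndufaf factors summed to 501.2, 549.5 and 549 CPM in knockout libraries, against 727, 597.9 and 603.5 CPM in wildtype libraries. These sums did not overlap between the genotypes. Ndufaf4 held 275, 308 and 310 CPM of them in knockout libraries, against 431, 350 and 355 CPM in wildtype libraries. Of the 8 factors, 4 did not overlap (50%), 1 higher and 3 lower, against 40.2% of all tested genes.

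**Figure D2:**
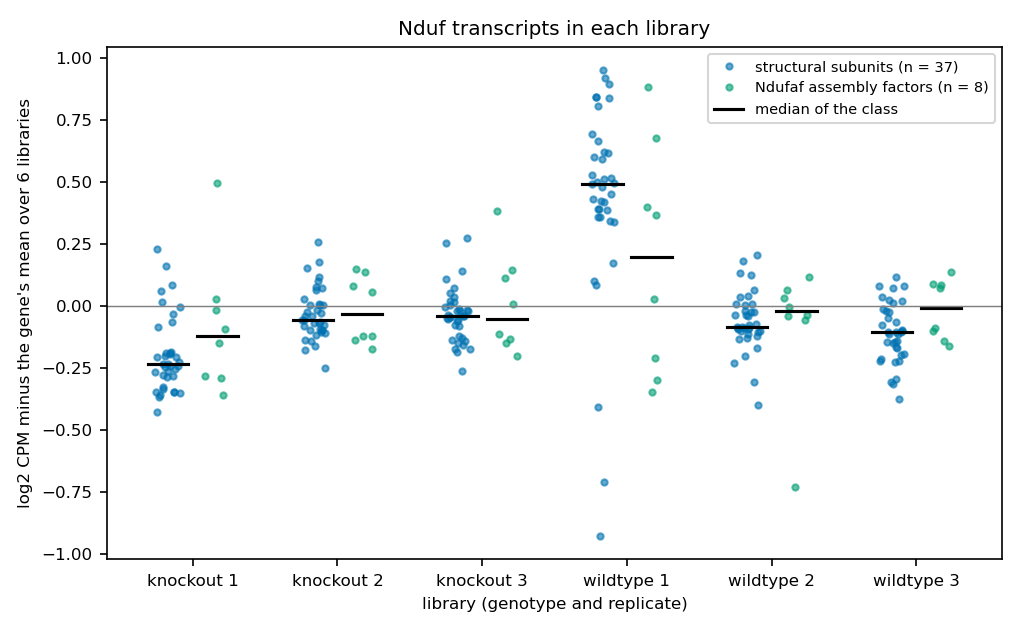
Log2 CPM of each structural subunit (blue) and Ndufaf factor (green) minus that gene's mean over the 6 libraries, with lines at the medians and knockout libraries left of wildtype libraries. The wildtype replicate 1 column is shifted up for most structural subunits, and Ndufs1 and Ndufv1 are shifted down in it.

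The deviation of wildtype replicate 1 also differed by transcript length. Over all tested genes its median on the log2 scale was 0.83 for transcripts under 700 bases, 0.34 from 1000 up to 1500 bases, -0.18 from 3000 up to 5000 bases and -0.03 from 5000 bases on. Structural subunits have a median length of 1026 bases and all tested genes 3305. Across the 46 members with a length, Spearman's rho of this deviation with length was -0.41, and across all 13819 tested genes with a length it was -0.19, both descriptions over genes that share a library. Whether length accounts for the members' values was not tested; with a loess correction for length and GC content the structural median was -0.15, and Ndufa1 (adjusted p = 0.0388 in edgeR) and Ndufa4l2 (adjusted p = 0.0301) rose while no member fell, against 15.5% of all genes called in that fit (6.91% higher and 8.63% lower).

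**Figure D3:**
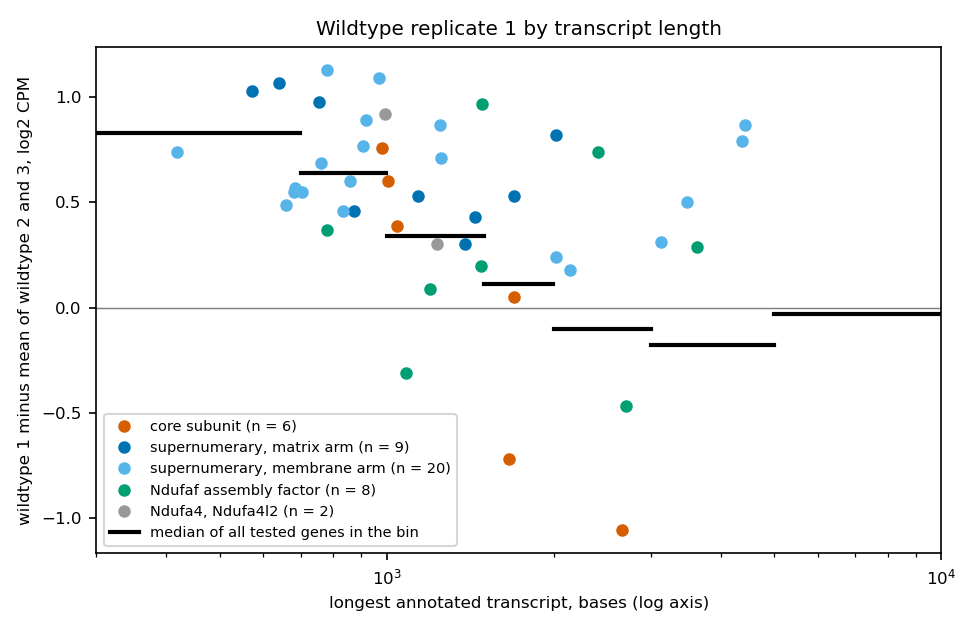
Log2 deviation of wildtype replicate 1 from the mean of wildtype replicates 2 and 3 against the length of the longest transcript, for Nduf genes, 1 not shown, and as medians over all tested genes in length bins. Bins of short transcripts sit above 0 (0.83 under 700 bases), as do most members.

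Without wildtype replicate 1, 8 members passed the threshold, 6 higher and 2 lower, beside 34.4% of all genes (16.7% higher and 17.7% lower). The structural median then was -0.02 and the Ndufaf median -0.10, against 0.01 over all genes. The members called made up 16.3% of the 49. With limma-voom and sample quality weights, which give a deviant library less say, 7 members were higher and 3 lower, beside 39.8% of all genes (19.5% higher and 20.3% lower). For 20 of the 49, the knockout libraries did not overlap with wildtype replicates 2 and 3, 9 higher and 11 lower, against 60.2% of all genes (29.6% higher and 30.5% lower).

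**Figure D4:**
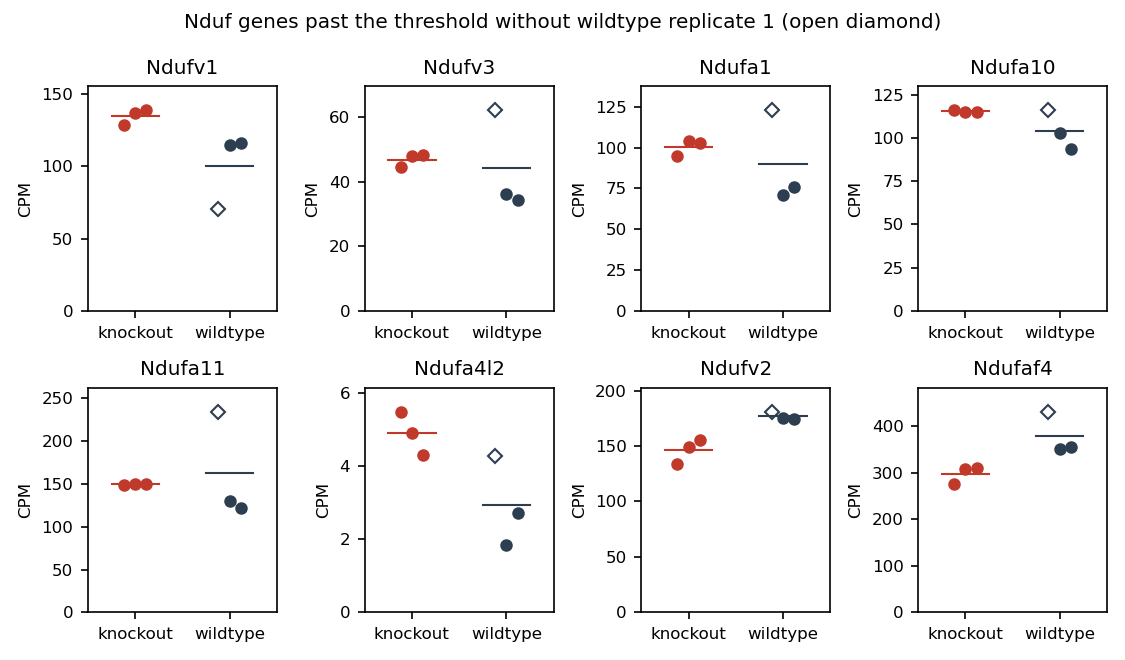
CPM in each library of the 8 genes past the threshold without wildtype replicate 1, knockout left and wildtype right; the open diamond is wildtype replicate 1, and the short lines are means of 3, that library included. The diamond lies above the knockout libraries for Ndufv3, Ndufa1, Ndufa11, Ndufv2 and Ndufaf4, and below them for Ndufv1. For Ndufa4l2 it lies just below the lowest knockout library (4.27 against 4.29 CPM).

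Of the 7 core subunits, Ndufv1 and Ndufv2 of the NADH module passed the threshold without wildtype replicate 1 (28.6%, beside 34.4% of all genes). Coordinates of called genes are those of RefSeq on GRCm38.p6. Ndufv1 (chr19:4007499-4012755), which carries the flavin and oxidises NADH, had 129, 137 and 139 CPM in knockout libraries, against 70.2, 115 and 116 CPM in wildtype libraries. The genotypes did not overlap, and wildtype replicate 1 was lowest by far. The difference missed the threshold with all libraries (log2 fold change 0.43, SE 0.196, adjusted p = 0.196 in edgeR) and passed it without wildtype replicate 1 (0.22, SE 0.062, adjusted p = 0.0172).

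Its partner Ndufv2 (chr17:66078795-66101559), an iron-sulphur subunit beside the NADH site, went the other way. It had 134, 149 and 155 CPM in knockout libraries, against 181, 175 and 174 CPM in wildtype libraries. All knockout libraries lay below all wildtype libraries, and the difference (log2 fold change -0.28, SE 0.111, edgeR adjusted p = 0.15) passed the threshold without wildtype replicate 1 (-0.26, SE 0.0686, adjusted p = 0.0135). The ratio of Ndufv1 to Ndufv2 in CPM was 0.962, 0.923 and 0.899 in knockout libraries, against 0.388, 0.66 and 0.667 in wildtype libraries. This pair was chosen after its values were seen. With the length and GC correction and without wildtype replicate 1, Ndufv1 had 0.06 (edgeR adjusted p = 0.483) and Ndufv2 -0.26 (edgeR adjusted p = 0.00417). The RefSeq interval of Ndufv2 overlaps that of Ankrd12, and strand use in counting is not given, so reads of the pair may be mixed.

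Ndufs1, the large iron-sulphur subunit of the NADH module, had 51.2, 49.4 and 52 CPM in knockout libraries, against 22.9, 49.5 and 46.2 CPM in wildtype libraries. Wildtype replicate 1 alone was low, and the other wildtype libraries fall among the knockout libraries or just below them. Without it the log2 fold change was 0.09 and the adjusted p 0.401 in edgeR. The RefSeq interval of Ndufs1 overlaps that of Ino80dos. Among the subunits of the ubiquinone module, Ndufs7, with the last iron-sulphur cluster before ubiquinone, had 95, 106 and 105 CPM in knockout libraries, against 163, 101 and 93 CPM in wildtype libraries. Wildtype replicate 1 is the highest library there, and the genotypes overlapped. Ndufs3, a scaffold subunit, had 28.9, 32.4 and 32.2 CPM in knockout libraries, against 42.7, 34.2 and 30.9 CPM in wildtype libraries. Ndufs8, the iron-sulphur subunit between the modules, had 47.7, 54.5 and 53.5 CPM in knockout libraries, against 77.4, 52 and 49.9 CPM in wildtype libraries. For both of these, too, wildtype replicate 1 is the highest library and the genotypes overlapped.

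Of the 9 supernumerary matrix-arm subunits, Ndufv3 was the only one past the threshold without wildtype replicate 1 (11.1%, beside 34.4% of all genes). This small accessory subunit of the NADH module (chr17:31520115-31531326) had 44.5, 47.9 and 48.2 CPM in knockout libraries, against 62.2, 36.1 and 34.4 CPM in wildtype libraries. The knockout libraries lie between the extremes of the wildtype group, and the log2 fold change was 0.41 without wildtype replicate 1 (SE 0.0816, edgeR adjusted p = 0.00282) and 0.08 with it (adjusted p = 0.843). Ndufa2 had 127, 152 and 143 CPM in knockout libraries, against 301, 151 and 144 CPM in wildtype libraries, so that wildtype replicate 1 alone exceeded the rest. Ndufs6, a zinc-binding subunit of the NADH module, had 30.9, 37.8 and 35.3 CPM in knockout libraries, against 70.5, 35.8 and 35.6 CPM in wildtype libraries, with the same library on top. Ndufs6b, left out above, averaged 6.35 CPM over the knockout libraries, against 8.94 CPM over the wildtype libraries. Its name is that of a copy of Ndufs6, so reads may have been shared. The RefSeq interval of Ndufa2 overlaps that of Tmco6. The other matrix-arm subunits had log2 fold changes between -0.44 and -0.08 with all libraries.

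In the membrane arm 3 of 21 subunits (14.3%) rose without wildtype replicate 1, beside 16.7% of all genes called higher in that fit. Ndufa1 (chrX:37187588-37191238) had 94.7, 104 and 103 CPM in knockout libraries, against 123, 71 and 75.6 CPM in wildtype libraries; its log2 fold change was 0.46 without wildtype replicate 1 (SE 0.0704, edgeR adjusted p = 0.000595) and 0.16 with all libraries. Its RefSeq interval overlaps that of Rnf113a1. Ndufa11 (chr17:56717762-56724248), at the interface with complex III, had 149, 150 and 150 CPM in knockout libraries, against 234, 130 and 122 CPM in wildtype libraries, with a log2 fold change of 0.24 without wildtype replicate 1 (SE 0.0587, adjusted p = 0.00811 in edgeR) and -0.12 with it. Ndufa10 (chr1:92439486-92473825), a nucleoside-kinase-like subunit, had 116, 115 and 115 CPM in knockout libraries, against 116, 103 and 93.6 CPM in wildtype libraries, and 0.23 without wildtype replicate 1 (SE 0.064, edgeR adjusted p = 0.017). For Ndufa1 and Ndufa11 wildtype replicate 1 was the highest of the 6 libraries, and for Ndufa10 it was level with the knockout libraries.

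With the length and GC correction and without wildtype replicate 1, Ndufa1, Ndufv3 and Ndufa4l2 remained past the threshold as higher, while Ndufv1 (0.06), Ndufa10 (0.09) and Ndufa11 (0.09) did not pass it. That fit also called 13 members lower, against 38.8% of all genes called in either direction (15.3% higher and 23.5% lower). Among those were Ndufv2, Ndufaf3, Ndufaf4 and Ndufaf8, so the count of lower members depends on this choice. The largest decreases in the membrane arm with all libraries belonged to Ndufc1 (log2 fold change -0.59, edgeR adjusted p = 0.16) and Ndufb4 (-0.55, adjusted p = 0.262). Ndufc1, of the ND2 module, had 20.5, 22.2 and 23.3 CPM in knockout libraries, against 47.3, 25.7 and 25.9 CPM in wildtype libraries. Ndufb4, of the ND4 module, had 22.2, 24.9 and 25.6 CPM in knockout libraries, against 54.6, 26.6 and 24.7 CPM in wildtype libraries. In both, wildtype replicate 1 is far above the other 5 libraries.

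**Figure D5:**
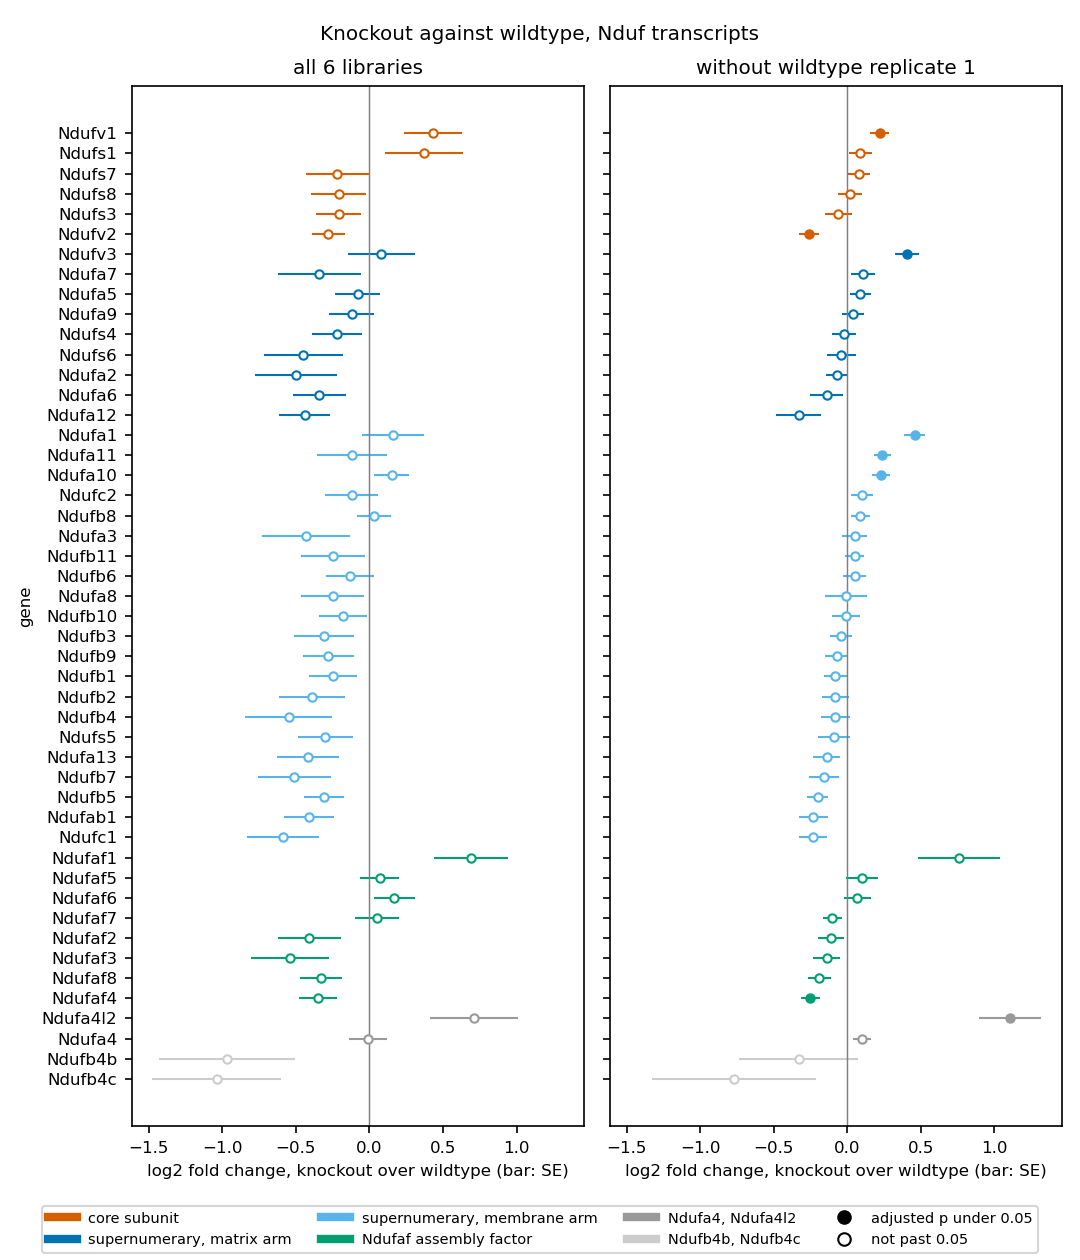
Fitted log2 fold change of knockout over wildtype for the Nduf genes, 1 not shown, with all 6 libraries and without wildtype replicate 1, with standard errors. With all 6 libraries the structural subunits have a median of -0.25, and without wildtype replicate 1 a median of -0.02.

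Among the 8 assembly factors, Ndufaf4 alone passed the threshold without wildtype replicate 1 (12.5%, beside 34.4% of all genes). Ndufaf4 (chr4:24898083-24905001), which acts with Ndufaf3 on the ubiquinone module, was also the most abundant of them. It had 275, 308 and 310 CPM in knockout libraries, against 431, 350 and 355 CPM in wildtype libraries. All knockout libraries lay below all wildtype libraries, with a log2 fold change of -0.25 without wildtype replicate 1 (SE 0.0633, edgeR adjusted p = 0.0115) and -0.35 with it (SE 0.13, adjusted p = 0.123). Its partner Ndufaf3 had 29.2, 34 and 32.6 CPM in knockout libraries, against 69, 36.4 and 33.9 CPM in wildtype libraries. There knockout replicate 2 reached above wildtype replicate 3, and wildtype replicate 1 stood alone.

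Ndufaf8, the partner of Ndufaf5, had 37.3, 36.7 and 37.3 CPM in knockout libraries, against 54.6, 41.3 and 43.5 CPM in wildtype libraries. The groups did not overlap, but the adjusted p in edgeR was 0.171 with all libraries and 0.0781 without wildtype replicate 1. Ndufaf1 had 2.15, 1.68 and 1.99 CPM in knockout libraries, against 1.3, 0.886 and 1.42 CPM in wildtype libraries, and its log2 fold change was 0.69 (SE 0.252, edgeR adjusted p = 0.119). These rest on between 23 and 75 counts per library. Ndufaf2, which holds the place of Ndufa12 late in assembly, had 35.3, 39.7 and 39.3 CPM in knockout libraries, against 68.9, 42.1 and 40.3 CPM in wildtype libraries. Wildtype replicate 1 was again the highest, and the genotypes did not overlap. The log2 fold change of Ndufaf2 was -0.41 with all libraries (edgeR adjusted p = 0.254) and -0.11 without wildtype replicate 1 (edgeR adjusted p = 0.336). Ndufaf5, which hydroxylates Ndufs7, had 18.5, 20.9 and 21.3 CPM in knockout libraries, against 20.1, 20.2 and 17.7 CPM in wildtype libraries. Ndufaf6, an early assembly factor, had 34, 37.8 and 37.9 CPM in knockout libraries, against 27.9, 33 and 36.5 CPM in wildtype libraries. Ndufaf7, a mitochondrial arginine methyltransferase, had 69.7, 71 and 68.8 CPM in knockout libraries, against 53.7, 74 and 75.1 CPM in wildtype libraries. Ndufaf5, Ndufaf6 and Ndufaf7 overlapped between genotypes.

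Of the 4 other members, Ndufa4l2 (chr10:127509274-127517154), a paralogue of Ndufa4 known to be induced by hypoxia, had 5.48, 4.89 and 4.29 CPM in knockout libraries, against 4.27, 1.85 and 2.7 CPM in wildtype libraries. Its difference was the largest of any member called: a log2 fold change of 1.11 without wildtype replicate 1 (SE 0.211, edgeR adjusted p = 0.00214) and 0.71 with it (adjusted p = 0.162). The genotypes did not overlap, but wildtype replicate 1 lay only just below knockout replicate 3 (4.27 against 4.29 CPM). The RefSeq interval of Ndufa4l2 overlaps that of Shmt2. Ndufa4, now assigned to complex IV, had 177, 188 and 188 CPM in knockout libraries, against 211, 176 and 168 CPM in wildtype libraries. It overlapped between genotypes. Ndufb4b had 0.472, 0.374 and 0.689 CPM in knockout libraries, against 1.63, 0.732 and 0.549 CPM in wildtype libraries. Ndufb4c had 0.118, 0.16 and 0.265 CPM in knockout libraries, against 0.48, 0.308 and 0.32 CPM in wildtype libraries. Both are named as copies of Ndufb4, so reads may have been shared with it, and they rest on few counts. Ndufs5 averaged 25.7 CPM over the knockout libraries, against 31.5 CPM over the wildtype libraries. Its pseudogene Ndufs5-ps was close to that, with 22.6 CPM over the knockout libraries, against 28 CPM over the wildtype libraries, so Ndufs5 is uncertain for the same reason.

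Of the mitochondrially encoded core subunits, 5 of 7 were tested. Of these 5, 4 fell with all libraries: mt-Nd1, mt-Nd4, mt-Nd5 and mt-Nd6, with log2 fold changes of -2.25, -3.20, -2.91 and -3.77, while mt-Nd2 (-2.19) had an edgeR adjusted p of 0.0542. mt-Nd5, a proton-pumping subunit, had 19.5, 25.4 and 30.6 CPM in knockout libraries, against 343, 102 and 123 CPM in wildtype libraries (edgeR adjusted p = 0.0103). All 5 fell without wildtype replicate 1, with smaller log2 fold changes. These were -1.46, -1.73, -2.16 and -2.36 for mt-Nd1, mt-Nd4, mt-Nd5 and mt-Nd6, and -1.06 for mt-Nd2. Of all tested genes, 5.34% were called lower with all libraries and 17.7% without wildtype replicate 1. The 7 genes summed to 176, 208 and 255 CPM in knockout libraries, against 2515, 557 and 672 CPM in wildtype libraries.

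Assembly factors without the Ndufaf prefix, 12 of 13 listed, showed 1 lower member with all libraries (11.2% of all genes were called), Nubpl, which inserts iron-sulphur clusters. It had 14.2, 13.9 and 15.7 CPM in knockout libraries, against 22.2, 20.1 and 21.9 CPM in wildtype libraries (log2 fold change -0.55, edgeR adjusted p = 0.0328). Without wildtype replicate 1, 1 rose (Dmac2, 0.25) and 4 fell, Tmem70 (-0.53), Nubpl (-0.52), Tmem186 (-0.34) and Tmem126a (-0.27), where 34.4% of all genes were called. Among the nuclear genes of the other complexes, with all libraries Sdhaf1 fell (-0.51) in complex II, Uqcrc1 rose (0.68) in complex III, Cox8c rose (1.43) in complex IV and none passed in complex V. Without wildtype replicate 1, 1 rose and 3 fell of 8 tested in complex II, 3 rose and 2 fell of 8 in complex III, 4 rose and none fell of 16 in complex IV, and 2 rose and 1 fell of 16 in complex V, beside 16.7% of all genes higher and 17.7% lower in that fit.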

How the data were processed

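Reads were aligned with STAR 2.7.11a and counted with featureCounts 2.0.3 on GRCm38.p6 (mm10), per the submitters' processing notes. The sources used here give neither the annotation nor the strand setting, nor how multi-mapping reads were handled. cDNA was made with a SMARTer kit and libraries with NexteraXT, single-end, per the labels' protocols. The values the authors deposited are raw counts per Entrez gene. Of 27179 identifiers, 25275 were named from RefSeq, 23 through older identifiers (Ndufb1 among them), 17 from GENCODE M21, and 1864 stayed unnamed.

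Genes were kept with filterByExpr, scaled with TMM and tested with edgeR 4.0.16's quasi-likelihood test in R 4.3.3, Benjamini-Hochberg adjusted over all tested genes, at 0.05. CPM are counts over TMM-scaled library size; log2 CPM used a prior count of 2. SE is the absolute log2 fold change over the square root of F. Alternatives were DESeq2 1.42.0 and its size factors, library totals only, limma-voom 3.58.1 with and without sample quality weights, no filter and a stricter filter (5 CPM in 3 libraries), loess length and GC correction (known for 92.4% of tested genes), the replicate block, and each library left out. The scripts were tested on simulated data. Members and lists were chosen with earlier results of these data known. Values were given per library for core subunits, Ndufaf factors, members called in either fit, the 2 largest increases and decreases per class and the extremes per length. Counts are not of independent molecules. The values of 1 member are not reported here by themselves; counts, sums and medians over members include it.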

Additional observations from a re-analysis of the deposited data

How the results depend on the processing

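No member passed in 6 of 6 alternatives that changed the scaling, filter or tool without weights, nor under the replicate block. Calls of Nduf genes appeared with the length and GC correction (2 higher), with limma-voom and sample quality weights (7 higher, 3 lower, against 39.8% of all genes), and with the length and GC correction without wildtype replicate 1 (3 higher, 13 lower); the last 2 were added after seeing the data. Leaving out 1 library gave between 0 and 6 higher and between 0 and 2 lower, all from leaving out wildtype replicate 1.

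The genes called overall numbered 1038 with the stricter filter, 2671 with DESeq2, 537 with the replicate block, 909 with length and GC correction and the block, 5410 with that correction without wildtype replicate 1, 5950 with quality weights, and 357 to 5199 leaving out 1 library (5199 when wildtype replicate 1 was dropped, 910 for wildtype replicate 2, 927 for wildtype replicate 3, and 380, 357 and 400 for the knockout libraries in order). Same-numbered libraries deviated from their group means with correlations of -0.058, 0.010 and -0.094. The labels do not say whether same-numbered libraries belong together, and correlations over so few libraries cannot decide it. The structural median was 0.01 with quality weights, and the Ndufaf median -0.35 with the stricter filter, which leaves out Ndufaf1.

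Of the members with values given per library, the following log2 fold changes turned sign. Ndufa11 had 0.01 with length and GC correction and 0.02 with the block too. It had 0.09 with the correction and without wildtype replicate 1, 0.23 with quality weights, and -0.28 to 0.24 leaving out 1 library. Ndufa4 had 0.00 with the block and 0.08 with the correction with and without the block. It had 0.13 with the correction without wildtype replicate 1, 0.11 with weights, and -0.07 to 0.10 leaving out 1 library. Ndufaf7 had -0.03 with the correction with and without the block. It had -0.13 with the correction without wildtype replicate 1, -0.08 with weights, and -0.10 to 0.13 leaving out 1 library. Ndufaf6 had -0.05 with the correction without wildtype replicate 1. Ndufs7 had 0.09 with weights, and -0.37 to 0.08 leaving out 1 library. Ndufs8 had 0.05 with weights, and -0.32 to 0.02 leaving out 1 library. Ndufv3 had -0.03 with the correction, and -0.07 to 0.41 leaving out 1 library. Ndufa5, Ndufa9 and Ndufb11, named above for their promoters, turned from -0.08, -0.12 and -0.25 to 0.09, 0.04 and 0.05 without wildtype replicate 1. None of these members was called in edgeR's uncorrected fit of all 6 libraries. After turning sign, Ndufa11 passed the threshold with quality weights and without wildtype replicate 1. The cause of the sign changes was not tested. Ndufb4b and Ndufb4c, with a mean under 1 CPM in each genotype, rest on 4 to 68 counts per library.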
